A study of Arabidopsis thaliana with 10 samples.

Results

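The chloroplast genome of Arabidopsis thaliana keeps a small set of genes from its bacterial ancestor, and its transcripts were followed here in seedlings whose plastids were bleached. They are all rows of the count tables whose gene identifier starts with ATCG among the 33602 genes listed, chosen by identifier and not by any measured value. Of these plastid genes 85 passed a filter on low counts and 48 did not. RNA sequencing gave 10 libraries in 5 groups of 2. Untreated wild type (Col6-3) was compared with 4 groups grown on 5 µM norflurazon, an inhibitor of carotenoid synthesis that bleaches plastids in the light. These 4 were wild type, gun1-9 (a mutant of GUN1, a plastid protein of signalling to the nucleus), MORF2OX and MORF2OX(w). The last pair overexpress MORF2, a plastid protein needed for RNA editing, and differ in the strength of their phenotype per the labels. All lines are in the Col6-3 background. Each library came from whole seedlings aged 5 days, pooled from over 100 plants and kept in 24 h of light (100 µmol per square metre and second) at 22 °C. The lesion of gun1-9, the promoter behind MORF2 in the overexpression lines and the number of independent lines are not stated in the sources used here. No untreated library of the 3 lines was analysed here, so their differences from wild type hold only on norflurazon. Untreated wild type was tested only against wild type on norflurazon.

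The plastid genome is a circle that encodes subunits of both photosystems, the cytochrome b6f complex, the ATP synthase, an NDH dehydrogenase complex and the large subunit of Rubisco, together with ribosomal proteins, ribosomal and transfer RNAs and the core of a bacterial-type RNA polymerase. That plastid-encoded polymerase (PEP) needs nuclear sigma factors and reads mainly photosynthesis genes, while a phage-type nuclear-encoded polymerase (NEP) reads genes such as rpoB, accD, clpP and ycf1. Most genes are read together in units, and the long transcripts are then cut, spliced and edited by nuclear-encoded proteins. Every other subunit of the same complexes comes from the nucleus, so the plastid and nuclear genomes have to be expressed side by side.

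The files give identifiers only. Symbols and functions were assigned from the published locus numbering and not from the files, so each rests on that assignment. A comparison with the RefSeq annotation of TAIR10.1 placed 130 identifiers, all but 3, on the plastid chromosome with no break in their order, apart from ATCG00065 (the first exon of rps12), which was left out of that comparison. The annotation itself names 6 of the identifiers.

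The sequences below belong to genes named in the results, and no test used them. They were read from the RefSeq plastid chromosome (Pltd) of TAIR10.1, 5′ to 3′ on the strand of the gene. The first shows a match to the bacterial-type promoter read by PEP, with the hexamers that stand for TTGACA and TATAAT in capitals, upstream of psbA.
psbA (ATCG00020, Pltd:1530-1559, minus strand): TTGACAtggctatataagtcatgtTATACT
The search covered the gene strand of the 300 bases before 86 protein-coding genes, and allowed 16 to 19 bases between the hexamers and up to 2 mismatches. The first hexamer had to begin with TTG, and the second with TA and to end with T. It matched in 4 windows, or 4.65%, so most genes had no such letters in that window. TTGACA alone, on the same strand, was in 9 windows (10.5%). A match is a description of letters and not a mapped promoter.
The next pair shows the transfer RNA genes whose counts moved furthest in MORF2OX, each whole, in lower case.
trnQ (ATCG00060, Pltd:6616-6687, minus strand): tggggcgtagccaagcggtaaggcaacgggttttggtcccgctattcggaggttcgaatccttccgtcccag
trnH (ATCG00010, Pltd:4-76, minus strand): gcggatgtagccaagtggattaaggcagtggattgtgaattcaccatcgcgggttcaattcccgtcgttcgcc
The last pair shows, in capitals, the bases that 2 neighbouring genes share, 53 for psbD and psbC and 16 for rps3 and rpl22, with 10 bases on either side. Reads there belong to both genes, and the counting rule for such reads is not stated in the sources used here.
psbD and psbC (ATCG00270, Pltd:33710-33782, plus strand): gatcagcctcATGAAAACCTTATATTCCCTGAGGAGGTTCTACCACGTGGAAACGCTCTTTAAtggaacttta
rps3 and rpl22 (ATCG00800, Pltd:83457-83492, minus strand): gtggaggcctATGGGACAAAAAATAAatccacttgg

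Library totals ran from 19018594 to 25220815 counts, of which 8354 to 29383 were plastid. The libraries were prepared by selection of polyadenylated RNA. Plastid messages mostly lack stable poly(A) tails, so values describe the plastid RNA in that fraction. In whole seedlings, fewer plastids or cells and less RNA per plastid cannot be told apart. MORF2 (AT2G33430), the overexpressed gene, lay at 90.8 to 123 CPM (counts scaled to a common library size) in the 6 libraries of wild type and gun1-9, at 7969 and 7248 in MORF2OX and at 4430 and 5012 in MORF2OX(w). The labels do not say whether the 2 libraries of a group were grown apart, so p-values measure only the spread between these libraries, which may be technical. The 2 libraries of wild type on norflurazon differed most from each other over all genes, with a chi-square of 31.5 per degree of freedom against 4.65 to 8.84 in the other groups. All comparisons of a line with wild type share those 2 libraries. Among plastid genes alone, MORF2OX(w) replicate 2 stood apart, with a psbA level of 84.7 CPM against 37.0 in replicate 1. Over plastid genes the chi-square per degree of freedom was 16.8 for that pair, 13.2 for the untreated pair and 1.46 to 5.26 for the others. GUN1 (AT2G31400) had 538 and 455 CPM untreated, 191 and 284 in wild type on norflurazon and 154 and 147 in gun1-9. With the lesion unknown, that level does not check the label.

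Plastid genes took 0.0613% and 0.106% of the counts in untreated wild type and 0.155% and 0.0795% in wild type on norflurazon. For gun1-9 the shares were 0.0394% and 0.0643%. For MORF2OX they were 0.0636% and 0.0677%, and for MORF2OX(w) 0.102% and 0.0750%. The 95% Wilson interval of each value covers counting error only and was narrow, 0.153% to 0.156% for the highest and 0.0386% to 0.0403% for the lowest. The libraries of one group differed by up to 1.94 times, in wild type on norflurazon, and untreated and treated wild type overlapped. The 2 gun1-9 libraries and the 2 MORF2OX libraries all lay below both libraries of wild type on norflurazon. With 2 libraries against 2, the smallest p that an exact permutation test can give is 0.333, and the share is given as a description with no test. The mitochondrial genome, a second organelle in the same libraries, took 0.0160% and 0.0222% in untreated wild type and 0.0591% and 0.0311% in wild type on norflurazon. It took 0.0517% and 0.0747% in gun1-9, which overlaps treated wild type, and 0.0228% and 0.0220% in MORF2OX. In MORF2OX(w) it took 0.0285% and 0.0891%, which is the same library that stood apart among plastid genes.

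**Figure D1:**
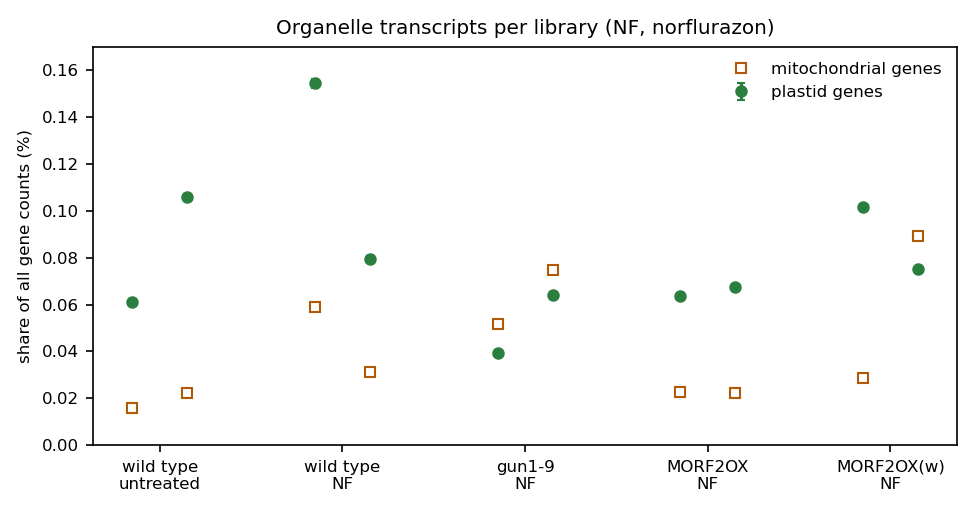
Share of all gene counts (percent, y axis) taken by plastid genes (filled circles, bars are 95% Wilson intervals, mostly hidden by the symbol) and mitochondrial genes (open squares) in each of 10 libraries, by group (x axis). Plastid shares span 0.0394% to 0.155% and replicates of wild type on norflurazon differ by 1.94 times.

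The copies of the inverted repeat, a stretch of 26264 bases present in 2 copies in the plastid genome, gave almost no counts. Of 33 genes lying wholly inside it, 23 were at 0 in all 10 libraries, and the 33 together held 194 counts. Of 93 single-copy genes 1 was at 0. The genes at 0 include both copies of ycf2 (ATCG00860, ATCG01280) and of ndhB (ATCG00890, ATCG01250) and the truncated copy of ycf1 (ATCG01000), so nothing can be said of them here. How reads matching both copies were counted is not stated in the sources used here. Ribosomal RNA was also close to 0, with 7 to 34 counts per library over its 8 genes. In all, 28 of the plastid genes had no count, 37 had fewer than 10 counts over all libraries, and the 48 that did not pass the filter entered no test.

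Per length, psbA, which encodes the D1 protein of photosystem II, had the highest level of any plastid gene in untreated wild type, a mean of 149 CPM per kilobase of exon. The gene rbcL (ATCG00490), for the large subunit of Rubisco, followed with a mean level of 100 CPM per kilobase. By function, photosystem II made up 34.6% and 29.4% of plastid counts in the untreated libraries, photosystem I 12.2% and 10.7%, the ATP synthase 14.9% and 15.8% and Rubisco 14.7% and 12.4%. Ribosomal proteins of the large subunit made up 3.28% and 5.90%, and those of the small subunit 3.71% and 5.65%. The plot of plastid counts by function shows that this order changed on norflurazon in every group.

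**Figure D2:**
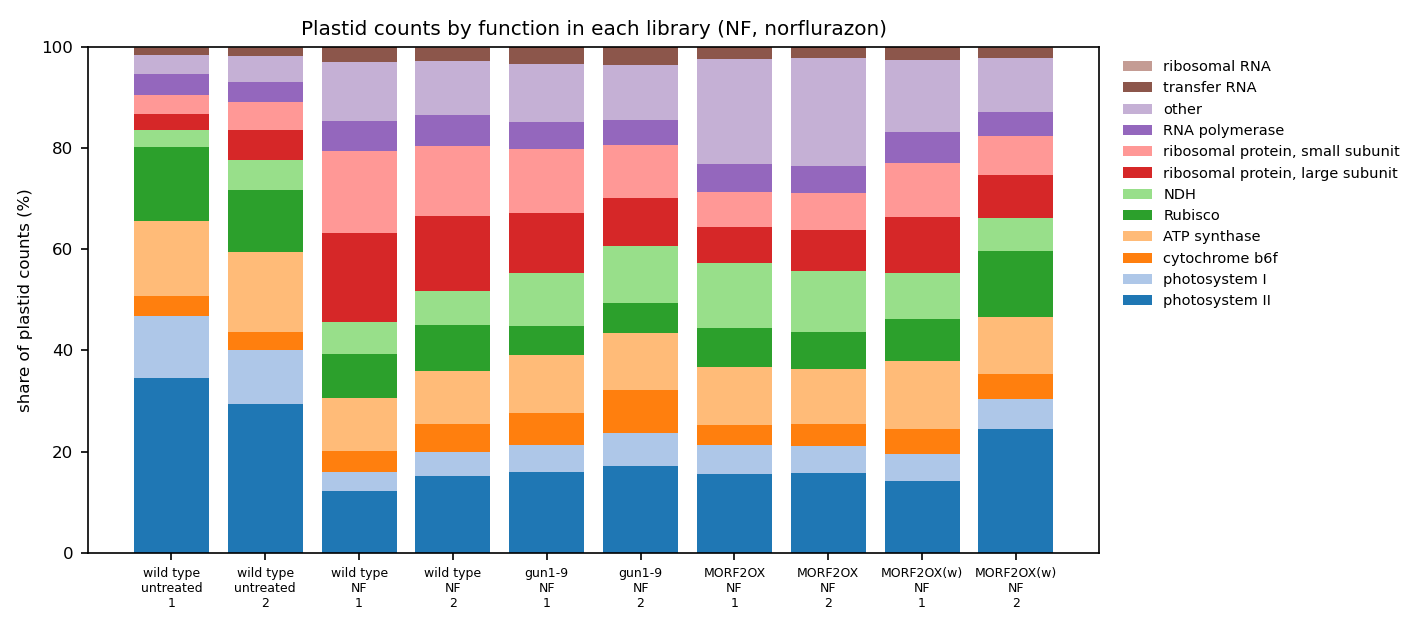
Share of plastid counts (percent, y axis) by function of the gene in each of 10 libraries (x axis, group and replicate number). Photosystem II (lowest segment) holds 34.6% and 29.4% in untreated wild type and 12.2% and 15.2% in wild type on norflurazon, while both ribosomal protein segments widen.

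Changes were tested on all 20628 genes that passed the filter, with edgeR's quasi-likelihood F test and Benjamini-Hochberg adjustment (threshold 0.05). A log2 change is relative to the library, meaning to all genes. The plastid-total scale divides plastid genes by the summed plastid count of their library. It measures each gene's share within the plastid pool, where a rise of some genes lowers the share of the others.

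On norflurazon plastid genes moved in both directions. In wild type, 19 plastid genes were higher and 20 lower of the 85 tested. Both were smaller shares than over all genes tested, 30.5% higher and 34.5% lower. Without the low-count filter 35 were higher. Core genes of both photosystems, 3 of 6 ATP synthase genes and rbcL fell, and 10 of 18 ribosomal protein genes, clpP, accD and ycf3 rose. On the plastid-total scale 39 were higher (30.7% of all genes) and 20 lower (34.5%), and 37 of the 39 changes on the library scale were called there too, with the same sign. The number of higher genes moved with single libraries. It was 11 without untreated replicate 1 or norflurazon replicate 1, 34 without untreated replicate 2 and 36 without norflurazon replicate 2, and the number of lower genes was 13 without untreated replicate 2. In the same comparison 4 of 7 root markers were higher, PLT1 (AT3G20840; from 0.0659 and 0.336 to 3.52 and 4.42 CPM), PHT1;1 (AT5G43350; 2.86), CASP1 (AT2G36100; 2.70) and SHV2 (AT5G49270; 1.56). SCR (-0.85) and GL2 (-0.43) were lower. The part of these markers in the plastid changes was not tested.

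Genes of photosystem II were mostly lower, 8 of the 14 tested, and none was higher on the library scale. The psbA transcript (Pltd 383 to 1444, minus strand, a single coding exon) lay at 157 and 158 CPM untreated and at 47.8 and 29.3 on norflurazon. The groups did not overlap, and the log2 change was -2.04 (SE 0.34, edgeR adjusted p = 0.00022). The psbB transcript (ATCG00680), for the CP47 core antenna protein, lay at 40.1 and 48.1 CPM untreated and at 18.4 and 10.9 on norflurazon (log2 change -1.60, SE 0.29, edgeR adjusted p = 0.00041). The short psbT (ATCG00690), downstream of psbB, lay at 3.10 and 2.75 CPM untreated and at 0.126 and 0.143 on norflurazon. That log2 change of -4.38 (SE 0.77, edgeR adjusted p = 0.00032) was the lowest of any plastid gene and rests on few counts. The genes of 1 unit, psbD (ATCG00270), psbC (ATCG00280) and psbZ (ATCG00300), all fell, psbC from 50.5 and 85.4 to 30.2 and 26.9 CPM. The psbD transcript, for the D2 protein, lay at 19.4 and 60.04 CPM untreated and at 15.7 and 10.3 on norflurazon, and its call was lost without untreated replicate 2 (log2 change -0.49, edgeR adjusted p = 0.178). The psbZ call was lost without untreated replicate 2 (-1.20, edgeR adjusted p = 0.169) or norflurazon replicate 2 (-1.40, edgeR adjusted p = 0.057). The small psbI (ATCG00080) lay at 0.988 and 1.009 CPM untreated and at 0.419 and 0.0356 on norflurazon (-2.19, edgeR adjusted p = 0.0127). Its call was lost without untreated replicate 1 (-2.11, edgeR adjusted p = 0.0515), untreated replicate 2 (-2.09, adjusted p = 0.0604) or norflurazon replicate 2 (-1.24, adjusted p = 0.0733). The 4 genes from psbE (ATCG00580) to psbJ (ATCG00550), which encode cytochrome b559 and small subunits, had log2 changes of 0.09 to 0.47, none past the threshold.

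The unit of the photosystem I core genes fell as a whole. The psaB transcript (ATCG00340, Pltd 37375 to 39579, minus strand), for a core subunit, lay at 60.2 and 79.4 CPM untreated and at 18.0 and 13.8 on norflurazon (log2 change -2.14, SE 0.27, edgeR adjusted p = 2.09e-05). The partner core subunit psaA (ATCG00350) lay at 34.1 and 51.2 CPM untreated and at 16.8 and 9.02 on norflurazon (-1.73, SE 0.33, edgeR adjusted p = 0.00054). The third gene of the unit, rps14 (ATCG00330), encodes a ribosomal protein and fell with them, from 14.0 and 17.6 to 6.32 and 4.21 CPM (-1.59, SE 0.26, edgeR adjusted p = 0.00019). The other small-subunit ribosomal genes that changed all rose. All 3 calls held in each of the 10 leave-one-out fits (1 library left out each time). The remaining photosystem I gene that was lower, psaJ (ATCG00630), lay at 7.51 and 7.29 CPM untreated and at 5.40 and 3.21 on norflurazon, and passed in 5 of those 10 fits. It was lost without either untreated library, norflurazon replicate 2 or either gun1-9 library, with log2 changes of -0.67, -0.72, -0.45, -0.70 and -0.70.

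The 2 genes of the ATP synthase catalytic unit fell together. The β subunit gene atpB (ATCG00480) lay at 59.2 and 82.8 CPM untreated and at 23.4 and 10.8 on norflurazon (log2 change -2.07, SE 0.32, edgeR adjusted p = 0.00013). The ε subunit gene atpE (ATCG00470) lay at 20.8 and 25.3 CPM untreated and at 9.00 and 4.21 on norflurazon (-1.82, SE 0.33, edgeR adjusted p = 0.00041). The α subunit gene atpA (ATCG00120), which lies in another unit, had 23.8 and 55.3 CPM untreated and 55.4 and 29.2 on norflurazon (0.09, SE 0.37, edgeR adjusted p = 0.846), so its libraries overlapped. Also lower was atpH (ATCG00140), at 6.26 and 10.5 CPM untreated and at 5.53 and 4.21 on norflurazon. The atpH call was lost without untreated replicate 2 (log2 change -0.28) or norflurazon replicate 2 (-0.62). The rbcL transcript (Pltd 54958 to 56397, plus strand) lay at 125 and 164 CPM untreated and at 105 and 57.1 on norflurazon (-0.84, SE 0.28, edgeR adjusted p = 0.0184). The rbcL call was lost without untreated replicate 2 (-0.53, edgeR adjusted p = 0.197) or norflurazon replicate 2 (-0.46, adjusted p = 0.0802), and with DESeq2 (adjusted p = 0.0671). Of the 4 cytochrome b6f genes tested, petB had the smallest p (0.48, edgeR adjusted p = 0.221, DESeq2 adjusted p = 0.154), which did not pass. The NDH complex had 1 of 10 higher, ndhC (ATCG00440), from 1.78 and 5.83 to 20.2 and 8.48 CPM (1.87, edgeR adjusted p = 0.0071), lost without untreated replicate 1 (1.39, adjusted p = 0.0558).

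Ribosomal proteins rose, 6 of 11 tested in the small subunit and 4 of 7 in the large, with 1 lower in each (rps14 above and rpl32). The long unit from rpoA to rpl23 carries most of them, and 8 of its 9 tested genes were higher. The rpl16 transcript (ATCG00790, Pltd 81189 to 82652, minus strand, with an intron) lay at 7.77 and 28.4 CPM untreated and at 91.4 and 36.9 on norflurazon (log2 change 1.81, SE 0.48, edgeR adjusted p = 0.0057). Within each group the 2 libraries differed by more than 2 times, while the groups did not overlap. In a second unit, rps18 (ATCG00650) went from 0.988 and 2.92 to 17.0 and 5.88 CPM (2.50, SE 0.51, edgeR adjusted p = 0.00091) and rpl33 (ATCG00640) from 1.19 and 5.49 to 23.9 and 8.87 (2.24, SE 0.56, edgeR adjusted p = 0.0038). These 3 calls held in all 10 leave-one-out fits. Those of rps3 (ATCG00800), rpl22 (ATCG00810) and rpl14 (ATCG00780) did not hold without untreated replicate 1 (1.17, 1.22 and 0.94) or norflurazon replicate 1 (0.98, 1.04 and 0.86).

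The genes of the plastid polymerase diverged. The rpoA transcript (ATCG00740, α subunit), at the end of the ribosomal unit, lay at 2.77 and 14.0 CPM untreated and at 32.2 and 18.2 on norflurazon (log2 change 1.56, SE 0.51, edgeR adjusted p = 0.0172). Its call was lost without untreated replicate 1 (0.94, edgeR adjusted p = 0.0744) or norflurazon replicate 1 (1.09, adjusted p = 0.0635), and with DESeq2 (adjusted p = 0.0629). The rpoB transcript (ATCG00190, β subunit, Pltd 23111 to 26329, minus strand) lay at 20.2 and 21.1 CPM untreated and at 11.1 and 7.55 on norflurazon (-1.15, SE 0.28, edgeR adjusted p = 0.0030), and fell in all 10 fits. Its partners in the unit, rpoC1 (ATCG00180) and rpoC2 (ATCG00170), did not pass. The log2 change of rpoC1 was 0.38 (SE 0.34, edgeR adjusted p = 0.338), and that of rpoC2 was 0.61 (SE 0.36, edgeR adjusted p = 0.147). Within the plastid total rpoC1 and rpoC2 were higher (0.58 and 0.83, edgeR adjusted p = 0.0150 and 0.00038) while rpoB stayed lower (-0.91, edgeR adjusted p = 0.0027).

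Among the remaining genes, clpP (ATCG00670), a protease subunit, lay at 6.98 and 13.5 CPM untreated and at 43.4 and 21.6 on norflurazon (log2 change 1.65, SE 0.35, edgeR adjusted p = 0.0013). The photosystem I assembly factor gene ycf3 (ATCG00360) lay at 1.58 and 4.43 CPM untreated and at 24.3 and 10.9 on norflurazon (2.51, SE 0.44, edgeR adjusted p = 0.00032). The accD gene (ATCG00500), for a subunit of acetyl-CoA carboxylase in fatty acid synthesis, lay at 0.725 and 5.94 CPM untreated and at 18.9 and 8.30 on norflurazon (1.96, SE 0.58, edgeR adjusted p = 0.0104). The accD call was lost without untreated replicate 1 (1.28, edgeR adjusted p = 0.0508) or norflurazon replicate 1 (1.26, adjusted p = 0.0535). The splicing maturase gene matK (ATCG00040), which lies inside an intron of a transfer RNA gene, lay at 4.94 and 12.7 CPM untreated and at 18.4 and 9.34 on norflurazon (0.63, SE 0.46, edgeR adjusted p = 0.243), with overlapping libraries. Of the transfer RNA genes, trnG (ATCG00100) went from 1.45 and 2.13 to 11.3 and 4.88 CPM (2.15, SE 0.48, edgeR adjusted p = 0.0017). The trnF gene (ATCG00410) had 2 counts in the untreated libraries and 29 on norflurazon, a ratio of 9.22 with a counting interval of 2.33 to 79.7. Its fitted call was lost without norflurazon replicate 1 (2.31, edgeR adjusted p = 0.0536).

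**Figure D3:**
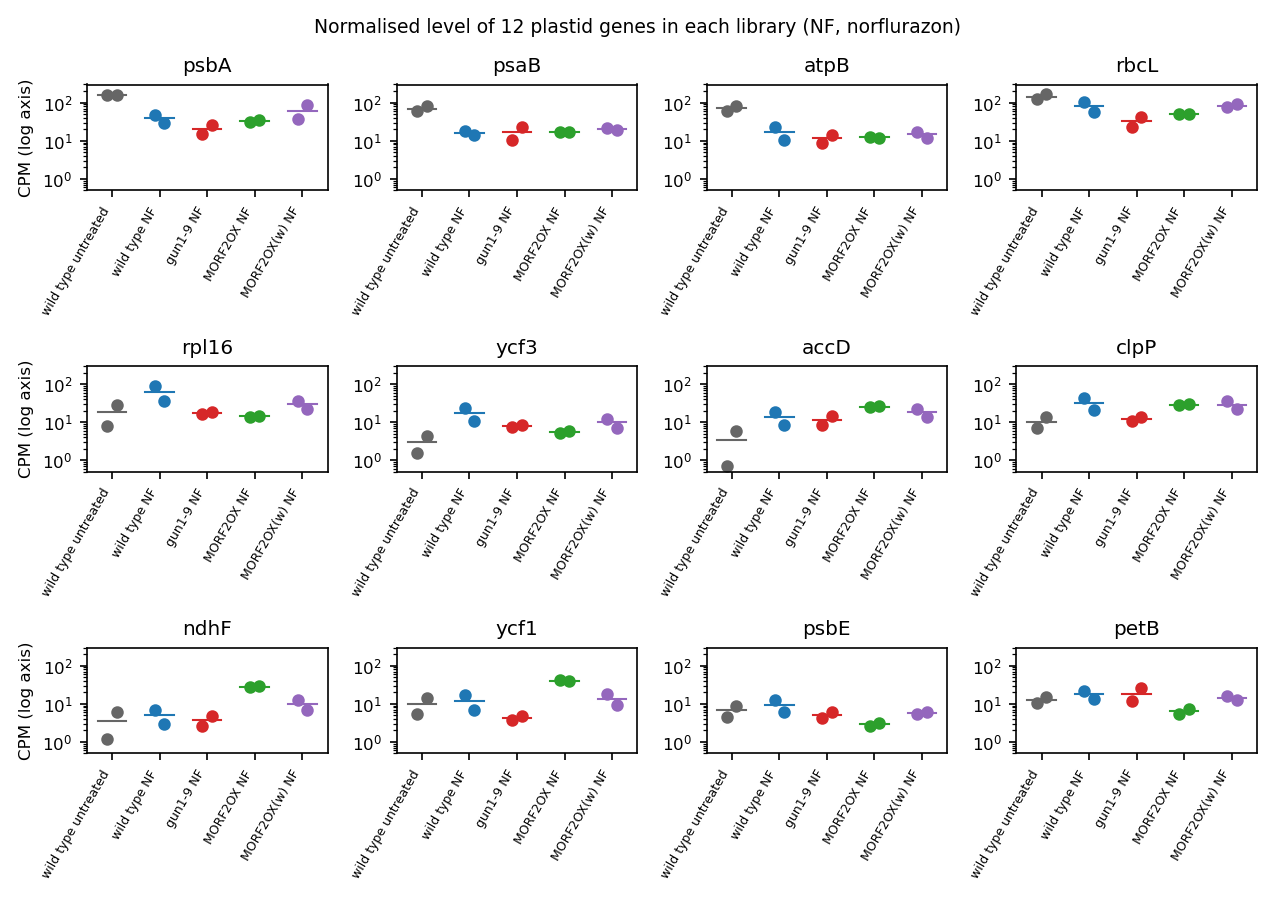
Normalised level (CPM, log axis) of 12 plastid genes in each library (points) with the group mean (line), by group (x axis). Norflurazon groups lie below untreated wild type for psbA, psaB and atpB, and MORF2OX lies above the other groups for ndhF and ycf1 and below them for psbE and petB.

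By the polymerase known to read them, 8 of 15 PEP genes were lower on norflurazon and none was higher, with a median log2 change of -0.93. Of 6 NEP genes tested, 2 were higher and 1 lower, with a median of 0.50. Over all genes the median was -0.03, with 34.5% lower and 30.5% higher. The PEP and NEP lists were chosen with results of these data known, and their counts describe them. Members named above do not all follow the list names, since rpoB is read mainly by NEP and fell. The nuclear genes that serve this transcription moved as well. All 6 sigma factor genes were lower on norflurazon, the first of them, SIG1 (AT1G64860), from 410 and 441 to 54.9 and 64.5 CPM (-2.84, edgeR adjusted p = 6.11e-09). The phage-type polymerase gene RPOTp (AT2G24120) was higher, from 34.4 and 34.7 to 99.3 and 113 CPM (1.62, edgeR adjusted p = 1.12e-07), as was RPOTmp (AT5G15700; 1.11, edgeR adjusted p = 0.00021). All 23 nuclear genes tested for subunits of the same photosynthetic complexes were lower, with log2 changes of -7.21 to -2.64.

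**Figure D4:**
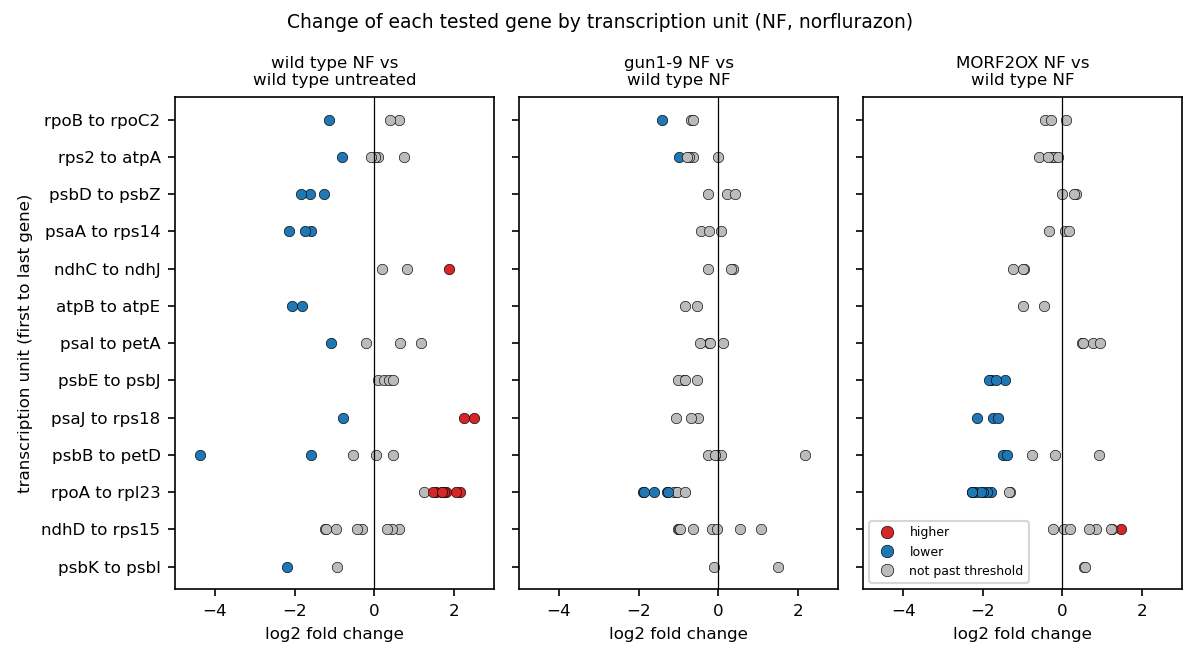
Log2 fold change (x axis) of each tested gene, by the transcription unit that holds it (y axis), in 3 comparisons. Red, higher; blue, lower; grey, not past the edgeR threshold. In the first panel the units psaA to rps14 and atpB to atpE lie left of 0 and the unit rpoA to rpl23 lies right of 0, and in the third panel the units psbE to psbJ and rpoA to rpl23 lie left of 0.

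In gun1-9, the plastid genes that changed on the library scale were lower, in a share close to that of all genes. Of the 85 tested, 0 were higher and 16 lower than in wild type on norflurazon, against 22.9% of all genes higher and 20.9% lower. With no filter on low counts, 1 was higher and 41 lower. With edgeR 1 gene was higher at an unadjusted p under 0.05, and DESeq2 called 0. The lower genes came from several functions, and included rbcL, rpoB, clpP, ycf1, ribosomal proteins and petN. Without norflurazon replicate 1 of wild type 5 were lower and 1 higher, without wild type norflurazon replicate 2 47 were lower, and without gun1-9 replicate 1 4 were lower and 3 higher. Beside this, 17 of 25 mitochondrial genes tested were higher and none lower, and their part in the plastid result was not tested. Of 7 root markers, SCR (AT3G54220) was higher, at 108 to 127 CPM against 36.4 to 45.4 (1.52, edgeR adjusted p = 2.66e-06). GL2 (AT1G79840) was lower (-0.63, edgeR adjusted p = 0.0062), and the other 5 did not pass, with log2 changes of -0.66 to 0.17. The summed level of the 7 was 166 and 147 CPM in gun1-9, most of it SCR, and 74.6 to 91.0 in the other libraries.

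The rbcL transcript lay at 23.4 and 41.1 CPM in gun1-9 against 105 and 57.1 in wild type on norflurazon (log2 change -1.32, SE 0.28, edgeR adjusted p = 0.0027). The rpoB transcript lay at 2.52 and 4.39 CPM against 11.1 and 7.55 (-1.42, SE 0.31, edgeR adjusted p = 0.0031). On the library scale both calls held in all 10 leave-one-out fits, and the libraries of the groups did not overlap. Within the plastid total they also passed with all libraries in the fit, with log2 changes of -0.59 and -0.74. Neither call on the plastid-total scale held without gun1-9 replicate 2, so the lower share within the plastid pool rests on that library.

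Other lower genes of gun1-9 rested more on single libraries. The clpP transcript lay at 11.1 and 13.4 CPM against 43.4 and 21.6 (log2 change -1.40, SE 0.34, edgeR adjusted p = 0.0053), and was lost without gun1-9 replicate 1 (-1.31, adjusted p = 0.0515). The rpl16 transcript lay at 16.7 and 18.3 CPM against 91.4 and 36.9 (-1.87, SE 0.48, edgeR adjusted p = 0.0075), and was lost without gun1-9 replicate 1 (-1.84, adjusted p = 0.0601) or 2 (-1.97, adjusted p = 0.0527). The ycf1 transcript (ATCG01130), for a large essential protein, lay at 3.66 and 4.81 CPM against 17.4 and 6.73 (-1.49, SE 0.49, edgeR adjusted p = 0.0279). It was lost without wild type norflurazon replicate 1 (-0.66, edgeR adjusted p = 0.258), gun1-9 replicate 1 (-1.35, adjusted p = 0.145) or gun1-9 replicate 2 (-1.74, adjusted p = 0.0857). The petN gene (ATCG00210), for a small subunit of the cytochrome b6f complex, lay at 0.0988 and 0.258 CPM against 0.963 and 0.392 (-1.82, SE 0.59, edgeR adjusted p = 0.0257). It was lost without wild type norflurazon replicate 1 (-1.08, edgeR adjusted p = 0.224) or gun1-9 replicate 1 (-1.38, adjusted p = 0.158). The rrn23S gene (ATCG00950) had 7 and 3 counts in gun1-9 against 20 and 16.

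Within the plastid pool of gun1-9 genes moved in both directions. On the plastid-total scale 17 genes were higher and 8 lower, against 23.1% and 21.0% of all genes, and 8 of the 16 lower calls of the library scale were kept. The higher ones were mainly of the photosystems, the NDH and cytochrome b6f complexes, and included psaA, psaB, psbB, psbD, petB, petD, ndhJ and ndhK. The ndhK transcript (ATCG00430), for an NDH subunit, lay at 13.0 and 22.5 CPM in gun1-9 against 18.6 and 10.1, a log2 change of 0.32 (edgeR adjusted p = 0.547) on the library scale and 1.05 (edgeR adjusted p = 0.0014) on the plastid-total scale. For psaB the values were 10.6 and 22.6 CPM against 18.0 and 13.8, with 0.07 (edgeR adjusted p = 0.849) and 0.70 (edgeR adjusted p = 0.0105). Both sets of libraries overlapped in CPM, so a higher share within the pool is not a higher level in the library. NDH genes held 10.6% and 11.3% of plastid counts in gun1-9, against 6.504% and 6.78% in treated wild type. The higher count on this scale was 10 without wild type norflurazon replicate 1 and 2 without gun1-9 replicate 2, and the lower count was 5 without gun1-9 replicate 1 and 0 without gun1-9 replicate 2. Of the 8 nuclear transcription genes, the 6 sigma factors were higher in gun1-9, SIG1 at 247 and 288 CPM against 54.9 and 64.5 (2.17, edgeR adjusted p = 1.09e-07). All 23 nuclear subunit genes were higher, with a median log2 change of 3.09, while the plastid partners named above were not higher on the library scale.

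MORF2OX differed from wild type on norflurazon in both directions. Of the small single-copy region 3 of 10 tested genes rose, as did ndhF and ycf1 at its borders. All genes of the psbE and psaJ units, 7 of 9 of the unit from rpoA to rpl23, petB, petD and ycf3 fell. In all, 6 plastid genes were higher and 22 lower of 85, against 19.3% of all genes higher and 14.1% lower. With no filter on low counts, 10 were higher and 34 lower. On the plastid-total scale 19 were higher (19.6% of all genes) and 21 lower (14.2%), and 26 of the 28 changes were called there with the same sign. The number of higher genes was 13 without wild type norflurazon replicate 1 and 3 without MORF2OX replicate 2. The number of lower genes was 38 without wild type norflurazon replicate 2, 10 without MORF2OX replicate 1 and 14 without MORF2OX replicate 2.

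Of the 6 higher genes, 3 lie in the small single-copy region (ndhD, ccsA and rpl32) and ndhF and ycf1 lie across its borders with the inverted repeat. The region holds 11 genes, of which 10 were tested and none was lower, and their median log2 change was 1.03 against -0.60 over 71 genes of the large single-copy region. The region was singled out after its values were seen. The ndhF transcript (ATCG01010, Pltd 110398 to 112638, minus strand), for an NDH subunit, lay at 26.8 and 28.4 CPM in MORF2OX. In wild type on norflurazon it lay at 6.99 and 2.99 (log2 change 2.48, SE 0.48, edgeR adjusted p = 0.0023). Untreated wild type had 1.19 and 5.999 CPM, gun1-9 2.57 and 4.77, and MORF2OX(w) 12.5 and 7.04, so MORF2OX was above every other library. The ycf1 transcript (Pltd 123884 to 129244, minus strand) lay at 40.9 and 39.9 CPM in MORF2OX against 17.4 and 6.73 (1.75, SE 0.43, edgeR adjusted p = 0.0089), also above every other library. Both passed in all 10 leave-one-out fits.

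The ccsA gene (ATCG01040), for a cytochrome c assembly factor, lay at 7.62 and 10.6 CPM in MORF2OX against 4.23 and 1.64 (log2 change 1.66, SE 0.39, edgeR adjusted p = 0.0074). The ndhD gene (ATCG01050), for an NDH subunit, lay at 12.3 and 12.9 CPM against 4.48 and 4.63 (1.47, SE 0.39, edgeR adjusted p = 0.0133). Both were lost without MORF2OX replicate 2 (1.40, edgeR adjusted p = 0.0726, and 1.44, adjusted p = 0.0686). The rpl32 gene (ATCG01020), for a large-subunit ribosomal protein, lay at 5.12 and 8.37 CPM against 3.89 and 1.68 (1.29, SE 0.38, edgeR adjusted p = 0.0229). It was lost without wild type norflurazon replicate 2 (0.80, edgeR adjusted p = 0.0728) or MORF2OX replicate 2 (0.90, adjusted p = 0.205). Its direction was opposite to that of the other large-subunit genes that changed in this comparison, all of which fell. The sixth gene, trnQ, whose sequence is printed above, had 21 and 25 counts in MORF2OX and 4 and 2 in wild type on norflurazon. Its log2 change was 2.93 (SE 0.61, edgeR adjusted p = 0.0037), and DESeq2 gave it no adjusted p.

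Ribosomal protein genes were lower in MORF2OX than in wild type on norflurazon, 6 of 11 tested in the small subunit and 4 of 7 in the large. The comparison shares its wild type libraries with that of norflurazon, and replicate 1 of that pair held the higher levels of these genes. In the unit from rpoA to rpl23, 7 of 9 were lower, with log2 changes of -2.27 to -1.32 over the 9. The rpl16 transcript lay at 13.6 and 14.8 CPM in MORF2OX against 91.4 and 36.9 in wild type on norflurazon and 7.77 and 28.4 untreated (log2 change -2.17, SE 0.48, edgeR adjusted p = 0.0053). The rpl22 transcript lay at 4.48 and 5.53 CPM against 33.5 and 14.9 (-2.27, SE 0.49, edgeR adjusted p = 0.0047), and rps19 (ATCG00820) at 2.46 and 3.25 against 19 and 8.55 (-2.26, SE 0.47, edgeR adjusted p = 0.0035). In the other unit rps18 lay at 2.58 and 2.56 CPM against 17.0 and 5.88 (-2.14, SE 0.46, edgeR adjusted p = 0.0045). These 4 passed in all 10 fits. For these 4 genes MORF2OX lay within the range of the untreated libraries, and that pair was not tested. Ribosomal proteins made up 7.14% and 8.10% (large) and 7.08% and 7.20% (small) of its plastid counts, against 17.6% and 14.8% and 16.2% and 13.9%.

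The psbE unit fell as a whole in MORF2OX, 4 of 4 genes. The psbE transcript (Pltd 64071 to 64322, minus strand), for the α subunit of cytochrome b559, lay at 2.62 and 3.21 CPM against 12.6 and 6.13 (log2 change -1.68, SE 0.36, edgeR adjusted p = 0.0040). The psbJ transcript lay at 1.55 and 2.00 CPM against 7.95 and 4.38 (-1.79, SE 0.35, edgeR adjusted p = 0.0024). Both lay below every other library and passed in all 10 fits. The psbF gene (ATCG00570) passed in 3 of them, and was lost without wild type norflurazon replicate 1 and without any library of gun1-9, MORF2OX or MORF2OX(w) (log2 changes of -1.77 to -0.64). In contrast, psbA, psaA, psaB, psbB and psbD did not pass, with psbA at 30.8 and 35.1 CPM against 47.8 and 29.3. The psbB unit was split. Its first genes psbB, psbT and psbH did not pass, while petB (ATCG00720), cytochrome b6, and petD (ATCG00730), subunit IV, were lower. The petB transcript lay at 5.43 and 7.25 CPM against 22.0 and 13.7 (-1.49, SE 0.34, edgeR adjusted p = 0.0063) and was lost without MORF2OX replicate 1 (-1.29, adjusted p = 0.0579). The petD transcript lay at 4.84 and 6.13 CPM against 16.6 and 12.5 (-1.40, SE 0.33, edgeR adjusted p = 0.0069), and was also lost without MORF2OX replicate 1 (-1.24, adjusted p = 0.0595).

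The trnH gene, printed above, moved furthest down, from 4.52 and 1.64 CPM in wild type on norflurazon to 0.476 and 0.321 in MORF2OX (log2 change -2.92, SE 0.53, edgeR adjusted p = 0.0017), or 12 and 8 counts. The ycf3 transcript lay at 5.16 and 5.81 CPM against 24.3 and 10.9 (-1.68, SE 0.39, edgeR adjusted p = 0.0070) and was lost without MORF2OX replicate 1 (-1.59, adjusted p = 0.0537). Of the 6 NEP genes tested, ycf1 was higher and none lower. The clpP transcript lay at 27.7 and 30.8 CPM (-0.15, edgeR adjusted p = 0.747) and accD at 24.5 and 26.8 against 18.9 and 8.30 (accD log2 change 0.92, SE 0.48, edgeR adjusted p = 0.155). MORF2 acts in editing, so the genes with known editing sites were looked at as a list. Of 14 tested, 2 were higher (ndhF and ndhD) and 2 lower (psbE and psbF), with a median log2 change of -0.21 against 0.02 over all genes. Of 10 tested genes with introns, 4 were lower (ycf3, rpl16, petB and petD) and none higher, with a median of -0.44. Of all genes 14.1% were lower and 19.3% higher. Of the 85 plastid genes tested, 22 were lower and 6 higher, and medians were -0.60 in the large and 1.03 in the small single-copy region. Whether either list differs from the other plastid genes was not tested. Editing and splicing themselves are not in count tables. Of the nuclear transcription genes all 6 sigma factors were higher in MORF2OX and RPOTmp was lower, at 8.96 and 11.3 CPM against 16.3 and 22.6 (-0.94, edgeR adjusted p = 0.0020).

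**Figure D5:**
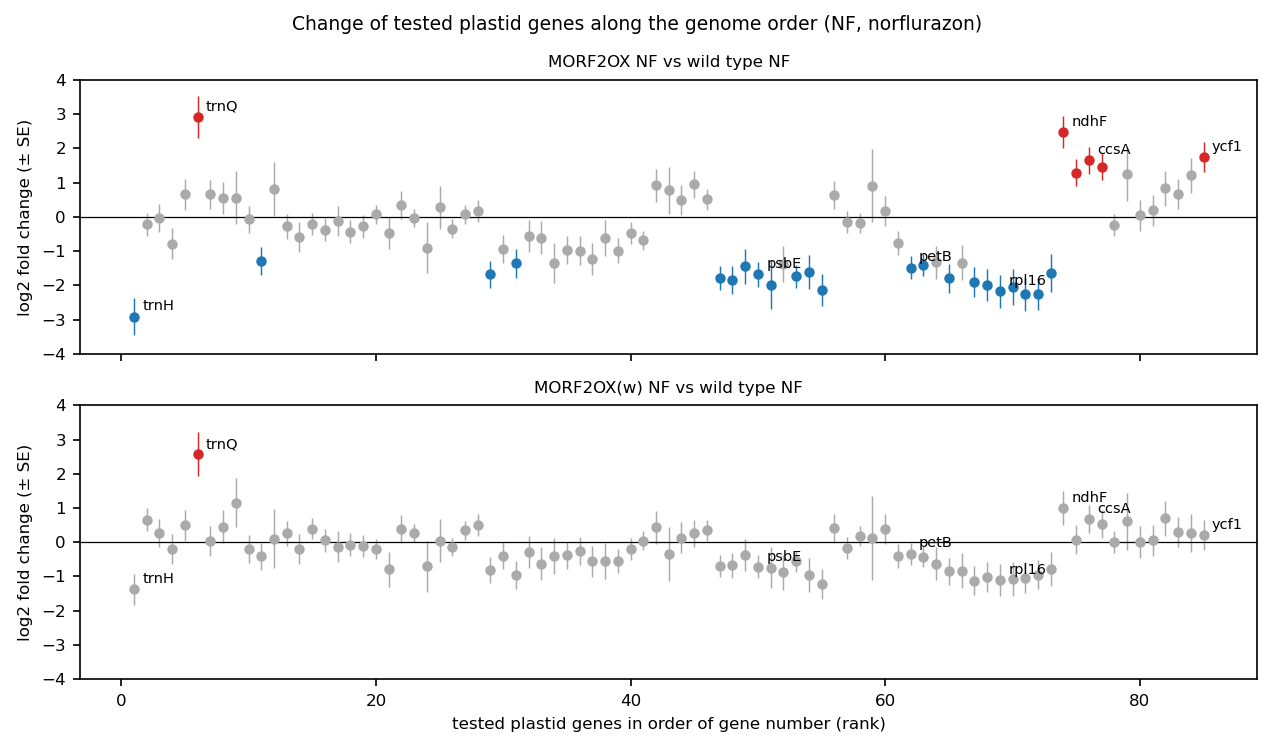
Log2 fold change with SE (y axis) of the 85 tested plastid genes in the order of their gene numbers (x axis, rank), for MORF2OX (top) and MORF2OX(w) (bottom) against wild type on norflurazon. Red, higher; blue, lower; grey, not past the edgeR threshold. The higher genes of MORF2OX sit at the right end, apart from trnQ, and trnQ is the gene past the threshold in MORF2OX(w).

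MORF2OX(w) showed fewer changes, 1 plastid gene higher and 0 lower, against 8.36% of all genes higher and 4.53% lower. Leaving out the low-count filter gave 3 higher and 14 lower. At an unadjusted p under 0.05 edgeR had 1 higher and 11 lower, and DESeq2 called 0 in either direction. The higher gene was trnQ, with 22 and 12 counts in MORF2OX(w) against 4 and 2 (log2 change 2.57, SE 0.64, edgeR adjusted p = 0.0229). It was lost without wild type norflurazon replicate 2 (2.07, edgeR adjusted p = 0.0508), MORF2OX(w) replicate 1 (2.20, adjusted p = 0.1704) or replicate 2 (2.84, adjusted p = 0.0772), and DESeq2 gave it no adjusted p. The number of higher genes was 5 without wild type norflurazon replicate 1, and the number of lower genes was 22 without wild type norflurazon replicate 2. For genes that changed in MORF2OX, the values of MORF2OX(w) were ndhF 12.5 and 7.04 CPM (log2 change against wild type 1.00, SE 0.49, edgeR adjusted p = 0.193), rpl16 36.5 and 22.9 CPM (-1.10, edgeR adjusted p = 0.131) and psbE 5.40 and 5.94 CPM (-0.72, edgeR adjusted p = 0.1705). As a share of the plastid total, 5 genes were higher (8.45% of all genes) and 5 lower (4.62%), among them ndhF (1.20, edgeR adjusted p = 0.0191). Those counts ran from 0 to 12 in either direction as single libraries were left out, and were 0 and 0 without MORF2OX(w) replicate 2. These comparisons share the wild type libraries with those of MORF2OX.

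The difference between the overexpression lines was tested directly. Of 85 plastid genes 0 were higher and 0 lower in MORF2OX than in MORF2OX(w), against 1.50% and 0.315% of all genes. With no filter on low counts, 5 were higher and 17 lower. At an unadjusted p under 0.05, 5 were higher and 13 lower with edgeR, and DESeq2 called 0 higher and 1 lower. The ycf1 transcript lay at 40.9 and 39.9 CPM against 18.2 and 9.25 (log2 change 1.55, SE 0.43, edgeR adjusted p = 0.102). The ndhF transcript lay at 26.8 and 28.4 CPM against 12.5 and 7.04 (1.49, SE 0.45, edgeR adjusted p = 0.143). Neither group overlapped the other, but the size of the difference did not pass beside the spread of the fit. Without either library of wild type on norflurazon, 4 genes were higher and 8 lower. As a share of the plastid total 4 genes were higher (1.54% of all genes) and 1 lower (0.330%). These were ycf1 (1.86), ndhF (1.79), ccsA (1.28) and ndhD (1.24), and petB (-0.88), with edgeR adjusted p of 0.0028, 0.0066, 0.0106, 0.0496 and 0.0266. The counts ran from 0 to 9 higher and 0 to 7 lower as single libraries were left out, and without MORF2OX(w) replicate 2, the library that stood apart, they were 0 and 0.

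MORF2OX and gun1-9, whose nuclear photosynthesis genes were both above wild type on norflurazon, differed in some plastid transcripts. In MORF2OX 11 of the 85 genes tested were higher and 8 lower than in gun1-9. Both were smaller shares than over all genes, 17.1% higher and 18.1% lower. Leaving out the low-count filter gave 21 higher and 16 lower. As a share of the plastid total 16 were higher (17.2% of all genes) and 21 lower (18.3%). Genes with wide gaps were ycf1, at 40.9 and 39.9 against 3.66 and 4.81 CPM (log2 change 3.25, SE 0.48, edgeR adjusted p = 0.00033), and ndhF, at 26.8 and 28.4 against 2.57 and 4.77 (2.90, SE 0.50, edgeR adjusted p = 0.00091). The trnQ gene had 46 counts over both libraries against 2, a ratio of 19.9 with a counting interval of 5.22 to 169.6. The rpoB transcript lay at 9.40 and 10.3 against 2.52 and 4.39 CPM (1.49, SE 0.31, edgeR adjusted p = 0.0030). These 4 passed in all 10 leave-one-out fits. Lower in MORF2OX were petB, at 5.43 and 7.25 against 11.6 and 25.5 CPM (-1.55, SE 0.34, edgeR adjusted p = 0.0042), lost without gun1-9 replicate 2 (-0.86, adjusted p = 0.0793), and ndhK, at 6.78 and 7.57 against 13.0 and 22.5 CPM (-1.31, SE 0.42, edgeR adjusted p = 0.0301). For ndhK the threshold was missed when gun1-9 replicate 2 was left out (-0.85, adjusted p = 0.274) or without MORF2OX replicate 1 (-1.23, adjusted p = 0.137) or 2 (-1.39, adjusted p = 0.114), and with DESeq2 (adjusted p = 0.106). Among NDH genes, ndhJ and ndhK of the large single-copy region were lower and ndhF and ndhH higher. The ndhJ call (ATCG00420; -1.35) was missed without gun1-9 replicate 2 (-1.08), MORF2OX replicate 1 (-1.29) or MORF2OX replicate 2 (-1.41). The ndhH call (ATCG01110; 1.65) was missed without gun1-9 replicate 1 (1.31) or MORF2OX replicate 1 (1.48). The count of lower genes was 0 without gun1-9 replicate 2, 1 and 2 without MORF2OX replicates 1 and 2, and 14 and 15 without wild type norflurazon replicates 1 and 2. The count of higher genes was 6 without gun1-9 replicate 1 and 18 without either library of wild type on norflurazon.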

How the data were processed

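The deposited files hold raw read counts per gene, 1 column per library. Reads were aligned with TopHat2 2.1.1 and Bowtie2 2.3.1 to TAIR10 and counted with HTSeq 0.6.1, per the submitters' processing notes, which also name edgeR. The libraries were strand-marked and selected for polyadenylated RNA, per the labels' protocols. The strand setting and the treatment of reads matching 2 places are not stated in the sources used here, so overlapping and opposite genes (psbN opposite psbT and psbH, matK inside an intron, ndhF with ycf1) are uncertain.

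Here, edgeR 4.0.16 (R 4.3.3, limma 3.58.1) fitted 5 group means to all 10 libraries, with filterByExpr (20628 of 33602 genes tested), TMM factors (0.722 to 1.27) and the quasi-likelihood F test, adjusted over all genes tested by Benjamini-Hochberg at 0.05. The standard error is the log2 change divided by the square root of F. CPM uses TMM-scaled library sizes. The plastid-total scale replaces the library size of plastid genes with their summed count. Alternatives were other size factors, no filter, DESeq2 1.42.0, a replicate block, the plastid total and leaving out each library. Leaving out libraries on the plastid-total scale was added after seeing the data. Simulated counts for MORF2OX against treated wild type gave every gene the same spread (common dispersion 0.0123). The 200 changed genes were well counted and lay outside the plastid genome. The fit recovered 95% of them at a 2-fold change (20285 genes fitted) and 100% at 4-fold (20263 fitted). Of unchanged genes outside the plastid genome it called 12 and 10. The simulation does not measure recovery for plastid genes, or at the wider spread of the treated wild type pair. Wilson intervals cover counting error only.

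Genes named were the listed core genes, the most abundant gene of each class, and the 3 widest changes in each direction per comparison with separate libraries. Others were named after their values were seen. The members are fixed by identifier alone, but the choice to describe them, and the lists, were made with earlier results of these data known. Gene symbols come from the published locus numbering, not from the files. Figures were drawn with matplotlib 3.10.9 in Python 3.11.15. Results for some genes are not reported here.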

Additional observations from a re-analysis of the deposited data

How the results depend on the processing

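No called plastid gene changed sign under median-of-ratios size factors or the plastid total. Counts below are plastid genes higher, then lower. With no filter on low counts, 35 were higher on norflurazon in wild type; gun1-9 had 1 and 41, MORF2OX 10 and 34, MORF2OX(w) 3 and 14, MORF2OX against MORF2OX(w) 5 and 17, and MORF2OX against gun1-9 21 and 16. On the plastid total the numbers that moved were 39 higher on norflurazon, 17 and 8 in gun1-9, 19 higher in MORF2OX, 5 and 5 in MORF2OX(w), 4 and 1 between the overexpression lines, and 21 lower against gun1-9. DESeq2 gave 0 higher in MORF2OX(w) and 1 lower between the overexpression lines. Without the most abundant gene the plastid share of counts, MORF2OX norflurazon, had a mean of 0.06062%. The cause of these shifts was not tested.

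Leaving out 1 library at a time gave 11 to 36 higher and 13 to 28 lower on norflurazon, 0 to 3 and 4 to 47 in gun1-9, 3 to 13 and 10 to 38 in MORF2OX, and 0 to 5 and 0 to 22 in MORF2OX(w). Between the overexpression lines it gave 0 to 4 and 0 to 8, and against gun1-9 6 to 18 and 0 to 15. On the plastid total the ranges were 33 to 42 and 18 to 24, 2 to 21 and 0 to 10, 14 to 24 and 15 to 26, 0 to 12 and 0 to 12, 0 to 9 and 0 to 7, and 10 to 17 and 15 to 24, in the same order. Where a group keeps 1 library, that library is assumed to vary like the others.

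The labels do not say that replicate numbers mark a shared origin. The correlations of same-numbered deviations from the group means ran from -0.102 to 0.0892 over all genes, so no pair was above 0.1 there. Over plastid genes they ran from -0.34 to 0.335, with pairs of either sign. With the replicate block 1 gene was lower in MORF2OX(w), and 56 of 57 named calls held, the other being rpl22 in gun1-9 (log2 change -1.26, just short of the threshold). Of the named calls, 10 were lost with DESeq2 and 6 on the plastid total, and 69 of the leave-one-out values lost theirs. Depth limits the small genes, since plastid genes hold 8354 to 29383 counts per library.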
